A study of Rattus norvegicus with 62 samples.

Results

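The genes described here are 39 listed genes of blood vessels and barrier junctions: markers of endothelial cells, the VEGF and angiopoietin signals and their receptors, proteins of tight junctions, endothelial transport proteins, adhesion molecules for leukocytes, and pericyte genes. A gene was taken when its symbol stood in the gene column of both deposited count tables, and 38 of the 39 did, among 40982 genes. The listed symbol Cspg4l matched no row and is not described further. By role there were 11 tight junction genes, 8 endothelial identity genes, 7 genes of VEGF and angiopoietin signalling, 7 of transcytosis and transport, 4 leukocyte adhesion genes and 1 pericyte gene. All 38 passed the filter on low counts in every comparison.

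Endothelial cells line the vessels of the dorsal root ganglion (DRG), the cluster of sensory neuron cell bodies beside the spinal cord, and pericytes wrap its capillaries. In brain and in the nerve trunk these cells form a tight barrier held by claudins, occludin and junctional adhesion molecules, while capillaries among the neuron cell bodies of the DRG are known to be leakier. VEGF opens and grows vessels through its receptors on endothelium, the angiopoietins tune vessel stability through the receptor Tie2, and selectins, Icam1 and Vcam1 let leukocytes attach to the vessel wall.

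RNA was sequenced from L4 DRG of rats (Rattus norvegicus) after chronic constriction injury (CCI), a pain model in which loose ligatures are tied around the sciatic nerve. The injured, ipsilateral (IL) ganglia were compared with the contralateral (CL) ganglia of the other side at 24 h, 1 week (1W) and 5 weeks (5W) in male rats and at 1W and 5W in female rats. There were 6 IL and 6 CL libraries from male rats at 24 h, 7 and 7 at 1W, and 5 and 5 at 5W, and 7 IL and 7 CL libraries from female rats at 1W and 6 and 6 at 5W. Every rat compared here had been injured, so the CL side is an uninjured ganglion of an injured animal. Strain and age are not given in the sources used here.

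The 62 libraries held 16933304 to 33495720 counts each. Atf3, a transcription factor induced in injured sensory neurons, lay at 145 to 376 CPM (counts scaled to library size) in the IL libraries and at 5.596 to 13.4 CPM in the CL libraries, so the labelled sides stood apart. Summed CPM of 10 neuronal markers lay between 21570 and 38900 in all libraries, and 7 of the 10 fell on the IL side at 1W and 5W in each sex. Another 2 of the 10 rose at these times, or 3 in female rats at 1W. The sum in male rats at 1W was 21570 to 29139 CPM in IL ganglia and 33556 to 36463 CPM in CL ganglia. Since CPM are shares, the part of this fall in the members' values was not tested. Counts come from whole ganglia, so fewer cells of a type and less RNA per cell cannot be told apart. Where the labels do not tie libraries to separate animals, as in male rats at 1W and 5W, p-values measure only the spread between these libraries.

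To compare genes with each other, levels were divided by exon length (RPKM) and averaged over the 31 CL libraries. Cav1, the coat protein of caveolae, was highest at 42.8 ± 11.5 RPKM (SD, n = 31). Slc2a1, the glucose transporter Glut1, followed at 37.1 ± 3.93 RPKM, Rgs5 at 34.2 ± 7.45 RPKM and Cldn5, the main claudin of brain endothelium, at 25.3 ± 3.54 RPKM (n = 31 each). The first 3 differed by less than the larger SD of each neighbouring pair. Rgs5 has an annotated exon length of 546 bases, the shortest of the members, which enters its RPKM. At the low end stood the leukocyte selectin genes Selp and Sele, with Ocln between them, and Sele had as few as 1 count in a library.

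The spread between libraries of a group also differed among the genes. The median coefficient of variation over the 10 groups was 5.26% for Jam2, 6.32% for Vegfa and 6.41% for Cldn12. It was 38.5% for Cldn1, 41.6% for Cldn11 and 44.3% for Angpt1, and 56.7% for the sparsely counted Sele. The Cldn1 level in CL libraries of female rats at 5W, for example, ran between 6.63 and 34.3 CPM. For Cldn1, Cldn11, Angpt1, Selp and Sele only large side differences could be told from this spread. Counts of some members could include reads of overlapping genes, since the strand setting of the counting is not given: Lsr overlaps Usf2, Lrp5 a pseudogene and Egfl7 the microRNA gene Mir126b on the same strand. Tjp1, Marveld2, Mfsd2a, Angpt1, Angpt2, Flt1, Egfl7 and Abcb1a overlap genes on the opposite strand.

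**Figure D1:**
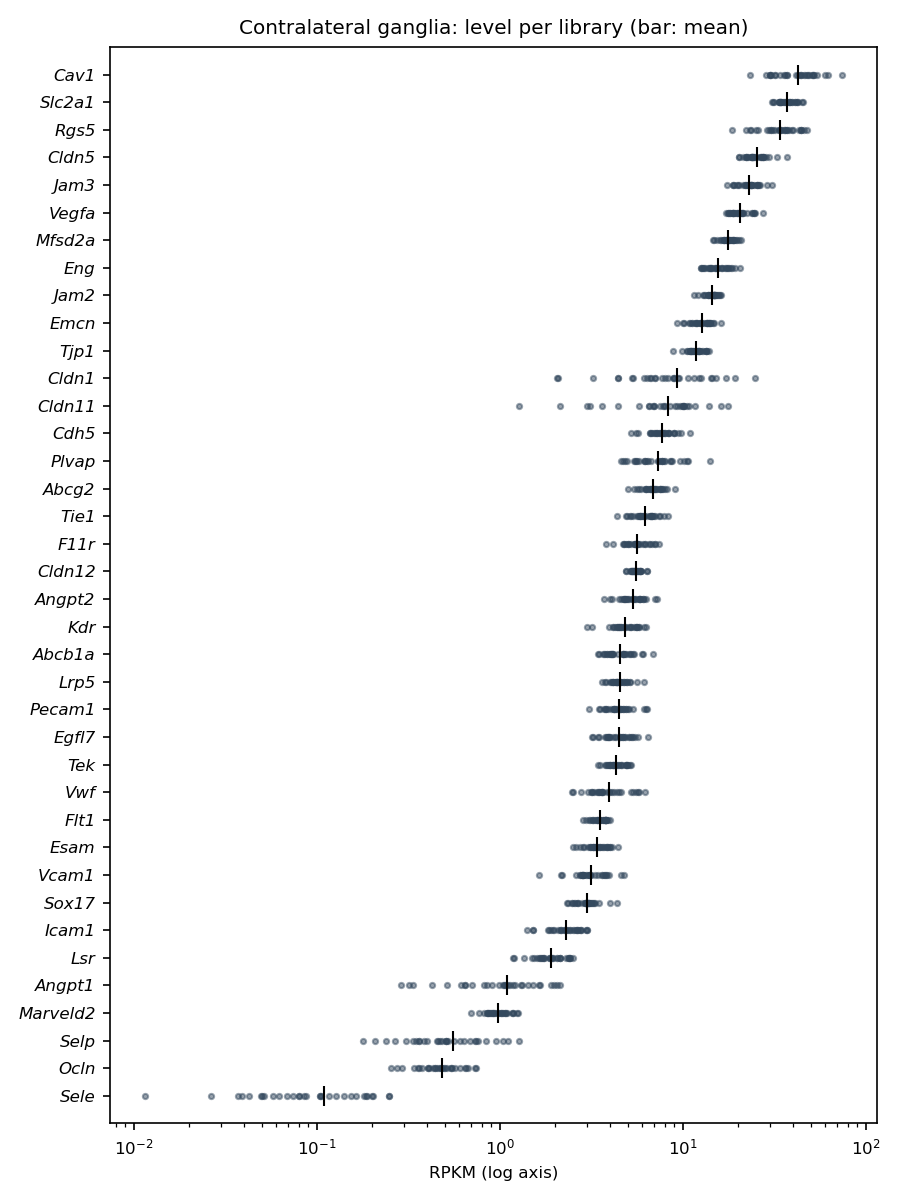
Level of the 38 genes in the 31 contralateral libraries, in RPKM on a log axis, with 1 point per library and a bar at the mean, ordered by the mean. Cav1, Slc2a1 and Rgs5 stand highest, Sele lowest, and the points of Cldn1, Cldn11 and Angpt1 are the most widely spread among genes of similar level.

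The side difference of each gene was tested with edgeR's quasi-likelihood test, and a gene is called when its p adjusted over all genes tested by Benjamini-Hochberg is under 0.05. At 24 h in male rats 2 of the 38 genes rose and 0 fell, where 14.1% of all genes tested were called, 8.23% higher and 5.9% lower. At 1W in male rats 7 rose and 5 fell, where 47% of all genes were called, 23.6% higher and 23.4% lower. At 5W in male rats 2 rose and 2 fell, where 34.7% of all genes were called, 16% higher and 18.7% lower. In female rats 6 rose and 4 fell at 1W, where 45.7% of all genes were called, 23.9% higher and 21.8% lower. At 5W 13 rose and 1 fell, where 42% of all genes were called, 22.9% higher and 19.1% lower. The members' share of calls was below that of all genes in each comparison without the block by rat. No called change exceeded 2-fold. The median log2 fold change (IL over CL) of the 38 genes was -0.06, 0.13 and 0.06 in male rats at 24 h, 1W and 5W, and -0.04 and 0.23 in female rats at 1W and 5W. Over all genes tested these medians lay between -0.01 and 0.01.

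Without the block by rat or replicate number there were 42 calls over the 5 comparisons, in 25 of the 38 genes. Icam1 and Cldn12 rose in all 5. Vegfa and Jam2 fell in 3, and Tjp1 and Slc2a1 rose in 3. Another 18 genes were called in 1 comparison and Kdr in 2, and 13 genes in none: Angpt1, Flt1, Tie1, Egfl7, Emcn, Esam, Sele, Selp, Cldn1, Cldn5, Cldn11, Marveld2 and Abcg2. Of these, Flt1, Emcn, Selp, Cldn1, Cldn5 and Abcg2 were called in at least 1 comparison with the block. Of the 42 calls, 18 held at the threshold of 0.05 under every alternative fit, and they belong to 8 genes: Icam1, Cldn12, Jam2, Vegfa, Tjp1, Tek, Ocln and Lsr. The Lsr call (adjusted p = 0.0153) does not pass a threshold of 0.01.

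The libraries of the 2 sides pair by rat or replicate number. With the rat or replicate number as a block, 4 members were called in male rats at 24 h in place of 2, 23 at 1W in place of 12, and 9 at 5W in place of 4. In female rats the block gave 13 calls at 1W in place of 10 and 20 at 5W in place of 14. The members' share of calls with the block was above that of all genes in male rats at 1W (60.5% against 53.9%) and in female rats at 5W (52.6% against 46%), and below it in the other 3 comparisons. Called with the block at 24 h were also Eng (log2 fold change 0.19, adjusted p = 0.0367) and Cav1 (-0.39, adjusted p = 0.00318). The 11 calls that the block added in male rats at 1W were higher Tek, Cdh5, Eng, Selp, Vcam1, Rgs5, Cldn1, Abcb1a and Lrp5 and lower Flt1 and Abcg2, with Cldn1 at 0.65 and Selp at 0.56 (adjusted p = 0.00852 and 0.00118). At 5W they were higher Tek (0.21), Tjp1 (0.16) and Slc2a1 (0.10) and lower Kdr (-0.22) and Cav1 (-0.24), with adjusted p between 0.00453 and 0.0473. In female rats they were lower Flt1 (-0.14), Vegfa (-0.12) and Emcn (-0.15) at 1W, and higher Flt1, Emcn, Selp, Cldn1, Cldn5 and F11r at 5W, the largest being Cldn1 at 0.78 and Selp at 0.64 (adjusted p = 0.0181 and 0.00509).

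**Figure D2:**
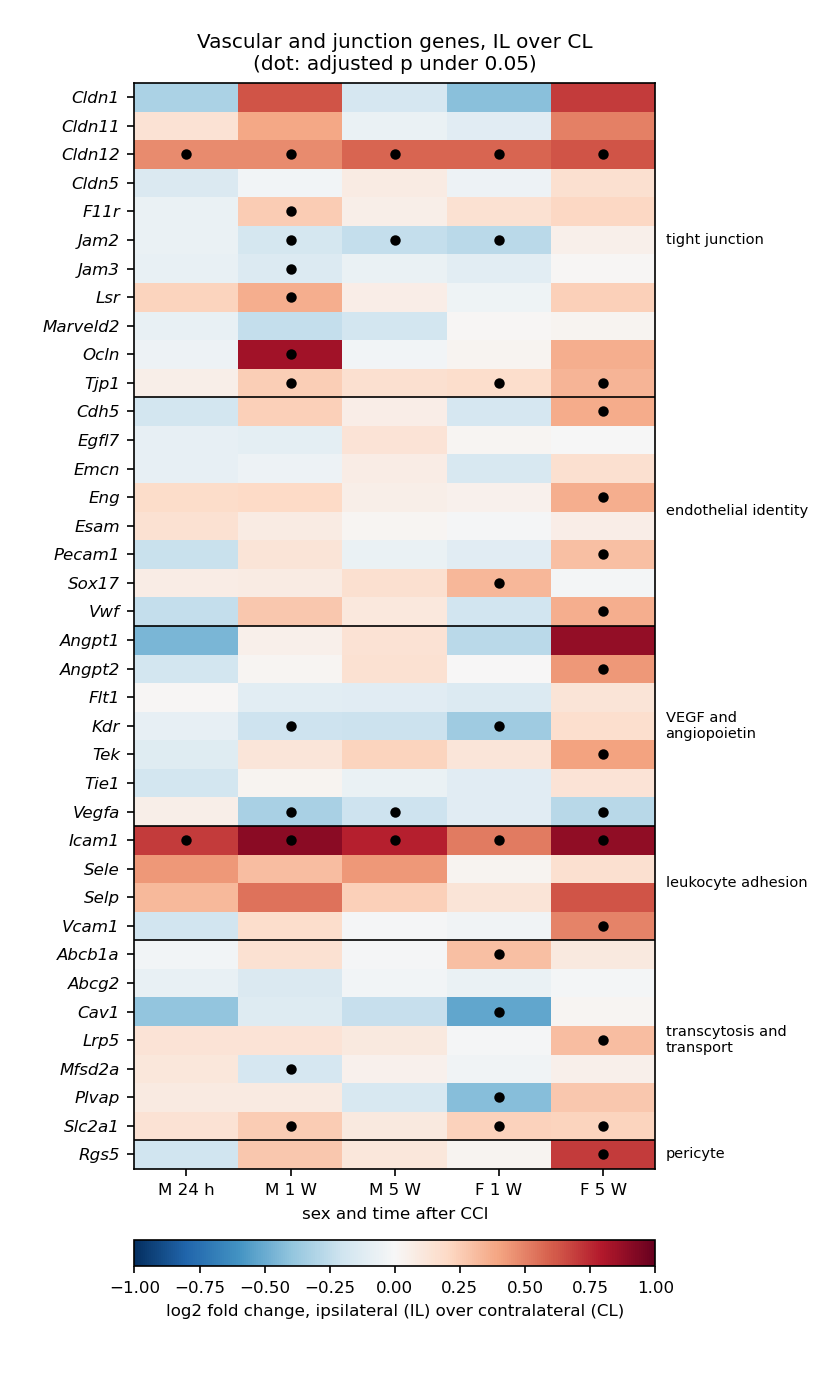
Log2 fold change of IL over CL for the 38 genes (rows, grouped by role) in the 5 comparisons (columns, M male and F female rats); red is higher and blue lower in IL, and a dot marks an adjusted p under 0.05 without the block. The rows of Icam1 and Cldn12 are red with a dot in all 5 columns, and the last column, female rats at 5W, holds 14 dots.

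Icam1, the endothelial and immune cell ligand of leukocyte integrins, was the leukocyte adhesion gene that rose at every time in each sex. The lowest, median and highest Icam1 levels of male rats at 24 h were 11.8, 13.2 and 16.6 CPM in IL ganglia, against 6.00, 8.65 and 9.69 CPM in CL ganglia. At 1W they were 9.94, 14.9 and 17.4 CPM in IL ganglia and 4.90, 7.60 and 9.52 CPM in CL ganglia. At 5W the IL libraries of male rats held 15.2, 11.8, 10.2, 10.9 and 13.2 CPM and the CL libraries 7.28, 6.84, 7.80, 7.45 and 6.33 CPM. All IL libraries of male rats stood above all CL libraries of the same time. In female rats the lowest, median and highest levels were 8.92, 11.4 and 12.3 CPM in IL ganglia at 1W, against 5.92, 7.84 and 9.003 CPM in CL ganglia, which overlap narrowly. At 5W they were 8.69, 11.9 and 14.5 CPM in IL ganglia, against 4.54, 6.21 and 8.37 CPM in CL ganglia, with no overlap.

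The log2 fold changes of Icam1 were 0.70 ± 0.13 (SE; adjusted p = 0.000199), 0.91 ± 0.12 (1.82e-06) and 0.78 ± 0.15 (0.000275) in male rats at 24 h, 1W and 5W. They were 0.52 ± 0.12 (0.000698) in female rats at 1W and 0.88 ± 0.14 (1.91e-06) at 5W. Icam1 was higher on the IL side of every one of the 31 pairs. Macrophages also carry Icam1, and their markers moved at most of these times. At 24 h 0 of 15 macrophage markers were called in either direction by edgeR, and their summed level was 215 to 328 CPM in IL ganglia and 198 to 520 CPM in CL ganglia. At 1W 13 of the 15 were higher in male rats (316 to 865 CPM in IL, 130 to 312 CPM in CL) and 12 of 15 in female rats (313 to 562 CPM in IL, 121 to 209 CPM in CL). At 5W 5 of 15 were higher in male rats (325 to 609 CPM in IL, 273 to 353 CPM in CL) and 12 of 15 in female rats (279 to 568.1 CPM in IL, 75.9 to 287 CPM in CL). The part of macrophages in the Icam1 levels was not tested at any of these times.

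Cldn12, a claudin that lacks the PDZ-binding end of most other claudins, rose by a similar amount in all 5 comparisons. The lowest, median and highest Cldn12 levels of male rats at 24 h were 27.3, 30.2 and 33.0 CPM in IL ganglia, against 20.7, 21.8 and 22.5 CPM in CL ganglia. At 1W they were 28.9, 29.9 and 34.2 CPM in IL ganglia and 20.4, 22.4 and 24.4 CPM in CL ganglia. At 5W the libraries held 27.5, 31.1, 27.0, 35.5 and 28.9 CPM in IL ganglia and 20.3, 19.8, 20, 21.2 and 18.9 CPM in CL ganglia. The sides did not overlap at any of the 3 times. In female rats they were 29.2, 32.1 and 35.8 CPM in IL ganglia at 1W, against 20.03, 20.7 and 24.3 CPM in CL ganglia. At 5W they were 26.2, 32.4 and 37.8 CPM in IL ganglia, against 18.7, 21.0 and 21.8 CPM in CL ganglia. Again the sides stood apart.

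The log2 fold changes of Cldn12 were 0.48 ± 0.06, 0.48 ± 0.05 and 0.58 ± 0.07 (SE) in male rats at 24 h, 1W and 5W, and 0.58 ± 0.06 and 0.63 ± 0.06 in female rats at 1W and 5W. The highest adjusted p of the 5 was 6.50e-07, at 24 h. Among the 38 members 2 had sides that did not overlap at 24 h, where 5.45% of all genes did. The numbers were 2, 3, 2 and 5 in male rats at 1W and 5W and female rats at 1W and 5W, against 22.1%, 21%, 20.9% and 21.8% of all genes. Cldn12 was the member found among them in every comparison.

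The sequences just upstream of these 2 genes are shown because they are the members that rose in all 5 comparisons. Both are the 250 bases before the RefSeq start of the gene on build GRCr8, from chr8:27829595-27829844 for Icam1 and chr4:29482060-29482309 for Cldn12, both on the plus strand, and capitals mark an NF-kB motif.
Icam1: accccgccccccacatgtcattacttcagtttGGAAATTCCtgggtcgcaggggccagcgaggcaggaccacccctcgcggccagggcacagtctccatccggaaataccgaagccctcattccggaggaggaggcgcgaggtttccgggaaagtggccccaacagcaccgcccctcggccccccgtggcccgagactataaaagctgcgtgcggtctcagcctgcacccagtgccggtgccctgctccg
Cldn12: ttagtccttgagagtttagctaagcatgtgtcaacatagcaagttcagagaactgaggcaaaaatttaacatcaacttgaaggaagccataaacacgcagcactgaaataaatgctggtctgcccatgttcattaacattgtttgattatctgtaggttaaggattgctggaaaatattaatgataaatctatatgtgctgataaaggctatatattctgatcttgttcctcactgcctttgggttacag
The letters GGAAATTCC lie 218 to 210 bases before the Icam1 start, and 0.287% of 33469 rat promoter windows of the same table hold them on either strand. Of the 26 members with a window in that table, Icam1 was the 1 that did. NF-kB was searched only as these fixed letters, with no free base, so the low share depends on the choice of letters. Other forms of the motif were not counted and members without a match may hold them. The 1 match therefore does not set Icam1 apart from the other members. The Cldn12 window holds none of the 4 motifs searched on either strand, the others being AP-1 (TGANTCA, in 6.34% of all windows), the hypoxia response element (NACGTGC, in 4.80%) and an ETS motif (CCGGAAG, in 7.27%). The 250 bases are 66.0% G or C for Icam1 and 36.4% for Cldn12, with a median of 51.2% over all windows. Both windows rest on the annotated start, and whether transcription begins there in these ganglia was not tested. The missing motifs therefore say nothing about the promoter that Cldn12 uses. These matches describe letters only.

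**Figure D3:**
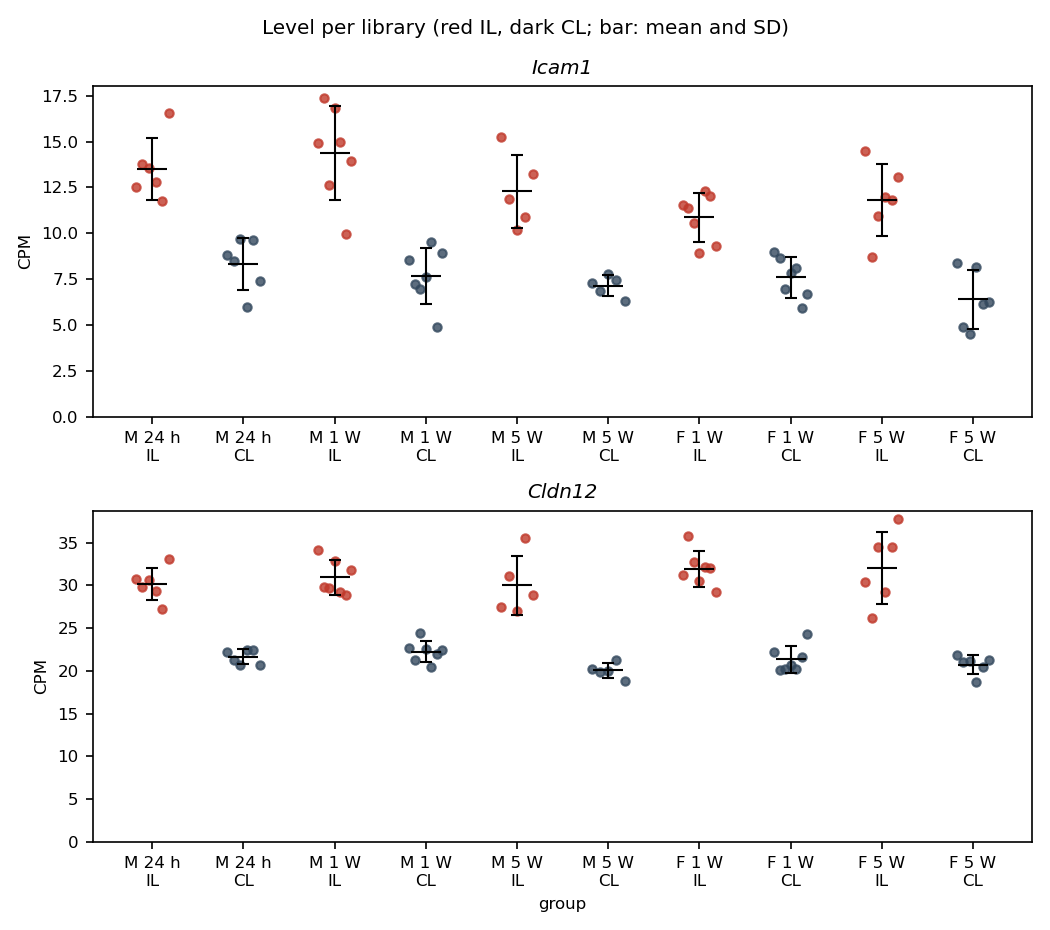
Level of Icam1 and Cldn12 in each library, in CPM, for the 5 pairs of groups (M male, F female rats; IL in red, CL in dark); bars give the mean and SD. IL points lie above CL points in every pair, with overlap only for Icam1 in female rats at 1W.

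Among the other tight junction genes, Tjp1, which encodes the scaffold protein ZO-1, rose in male rats at 1W and in female rats at both weeks. Its lowest, median and highest levels in female rats at 5W were 108, 112 and 119 CPM in IL ganglia, against 85.2, 86.8 and 95.1 CPM in CL ganglia. The sides did not overlap, and the log2 fold change was 0.34 ± 0.07 (SE, adjusted p = 6.97e-05). It was 0.24 ± 0.07 in male rats at 1W (adjusted p = 0.00377) and 0.17 ± 0.06 in female rats at 1W (adjusted p = 0.0177). The call in female rats at 1W was lost without CL library 4 (adjusted p = 0.0568).

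Jam2, the junctional adhesion molecule JAM-B of endothelium and other cells, went the other way. It fell in male rats at 1W and 5W and in female rats at 1W. Its lowest, median and highest levels in female rats at 1W were 48.8, 52.5 and 60.0 CPM in IL ganglia, against 61.5, 66.5 and 68.3 CPM in CL ganglia, without overlap (log2 fold change -0.27 ± 0.05, SE, adjusted p = 1.08e-05). In male rats it was -0.18 ± 0.05 at 1W (adjusted p = 0.00989). At 5W the libraries of male rats held 65.0, 64.1, 49.9, 54.8 and 50.4 CPM in IL ganglia and 67.4, 69.8, 64.9, 69.4 and 64.4 CPM in CL ganglia (-0.24 ± 0.07, adjusted p = 0.00520). IL library 1 lay within the range of the CL libraries and the other IL libraries below it. In female rats at 5W Jam2 lay at 60.7 ± 3.46 CPM in IL ganglia and 58.7 ± 5.16 CPM in CL ganglia (SD, n = 6 each) and was not called.

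Ocln, the junction protein occludin, rose in male rats at 1W, where its lowest, median and highest levels were 2.24, 3.57 and 3.97 CPM in IL ganglia, against 1.41, 2.09 and 2.27 CPM in CL ganglia. The sides overlapped by 1 library, and the log2 fold change was 0.84 ± 0.16 (SE, adjusted p = 0.000128). At the other times its log2 fold change lay between -0.05 and 0.37 and was not called. In the same comparison Lsr, the angulin of tricellular junctions, rose by 0.37 ± 0.12 (adjusted p = 0.0153) and F11r, which encodes JAM-A, by 0.25 ± 0.10 (adjusted p = 0.0345). Jam3, which encodes JAM-C, fell by 0.14 on the log2 scale (SE 0.04, adjusted p = 0.00303). The F11r call was lost without IL library 1 or 2 or CL library 3, 4, 6 or 7 (adjusted p 0.0521 to 0.0869). Erythrocyte markers differed between the same sides: 11 of 11 were higher, at a summed 665 to 2261 CPM in IL ganglia and 143 to 914 CPM in CL ganglia, and 13 of 15 macrophage markers were higher, at 316 to 865 CPM in IL ganglia and 130 to 312 CPM in CL ganglia. Of 10 granulocyte and mast cell markers 8 were higher, at 114 to 268 CPM in IL ganglia and 68.6 to 149 CPM in CL ganglia, and of 10 myelinating Schwann cell markers 7 were lower. The part of these cells in the calls was not tested. Without the block Cldn5 was not called at any time, and in female rats at 5W it lay at 37.0 ± 3.58 CPM in IL ganglia and 33.2 ± 3.03 CPM in CL ganglia (SD, n = 6 each).

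In VEGF signalling, the ligand gene Vegfa fell in 3 comparisons and the receptor gene Kdr in 2 without the block. Vegfa in male rats at 1W had a lowest, median and highest level of 57.5, 59.9 and 67.9 CPM in IL ganglia, against 67.6, 74.4 and 84.2 CPM in CL ganglia. The sides overlapped only at their edges, and the log2 fold change was -0.33 ± 0.05 (SE, adjusted p = 6.68e-06). At 5W in male rats the libraries held 65.3, 66.6, 67.8, 60.9 and 69.9 CPM in IL ganglia and 75.2, 71.3, 82.1, 71.7 and 81.4 CPM in CL ganglia, without overlap (-0.21 ± 0.06, adjusted p = 0.00732). Without IL library 4, the lowest, this call was lost (adjusted p = 0.0537). In female rats at 5W the levels were 72.0, 81.2 and 89.1 CPM in IL ganglia, against 94.1, 96.9 and 108 CPM in CL ganglia, again apart (-0.28 ± 0.06, adjusted p = 0.000192). At 24 h in male rats Vegfa was at 78.3 ± 4.58 CPM in IL ganglia and 75.3 ± 4.40 CPM in CL ganglia (SD, n = 6 each) and was not called.

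Kdr, which encodes VEGF receptor 2, fell in female rats at 1W, with a lowest, median and highest level of 19.4, 21.9 and 27.3 CPM in IL ganglia, against 24.4, 30.4 and 36.1 CPM in CL ganglia (log2 fold change -0.36 ± 0.12, SE, adjusted p = 0.0112), with some overlap. In male rats at 1W it fell by 0.21 on the log2 scale (adjusted p = 0.0356), a call lost without IL library 4, 6 or 7 or CL library 3, 4, 5 or 6 (adjusted p 0.0544 to 0.0933). Flt1, the VEGF receptor 1 gene, lay between -0.13 and 0.13 at all times and was not called without the block. With the block it was lower at 1W in male rats (-0.11, adjusted p = 0.0217) and female rats (-0.14, adjusted p = 0.00699). In female rats at 5W it was higher with the block (0.12, adjusted p = 0.0245). Of the angiopoietin genes, Tek, which encodes the receptor Tie2, rose in female rats at 5W. Its lowest, median and highest levels there were 23.1, 24.9 and 26.4 CPM in IL ganglia, against 17.2, 17.9 and 22.5 CPM in CL ganglia, without overlap (0.40 ± 0.08, adjusted p = 6.90e-05). Angpt2, the ligand that can oppose Tie2 activity, rose in the same comparison to 15.8 ± 2.31 CPM in IL ganglia, against 11.7 ± 1.08 CPM in CL ganglia (SD, n = 6 each; 0.43 ± 0.13, SE, adjusted p = 0.00757). Angpt1, the activating ligand, had a log2 fold change of 0.88 ± 0.44 there and was not called (adjusted p = 0.107).

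In female rats at 5W 4 of the 8 endothelial identity genes were called without the block, all higher: Cdh5, Eng, Pecam1 and Vwf. Of all genes 42% were called there, 22.9% higher and 19.1% lower, so the share called was near that of all genes. Cdh5, the adhesion protein VE-cadherin, rose by 0.37 ± 0.14 on the log2 scale (SE, adjusted p = 0.0257). Eng, the TGF-beta co-receptor endoglin, rose by 0.37 ± 0.11 (adjusted p = 0.00732), Pecam1, the endothelial antigen CD31, by 0.30 ± 0.11 (adjusted p = 0.0320), and Vwf, the clotting factor stored in endothelial cells, by 0.36 ± 0.14 (adjusted p = 0.0365). Each was higher on the IL side of all 6 pairs. The call of Cdh5 was lost without IL library 1, 4 or 6 or CL library 2 or 3 (adjusted p 0.0503 to 0.0929). That of Pecam1 was lost without IL library 5 or 6 or CL library 2, 3 or 4 (0.0505 to 0.0988), and that of Vwf without IL library 1, 4 or 5 or CL library 2, 4 or 6 (0.0519 to 0.122). Without the block the 8 genes gave 1 call in the other 4 comparisons. This was Sox17, an arterial transcription factor, which rose in female rats at 1W (0.33 ± 0.11, adjusted p = 0.0108). The summed level of the 8 genes was 156 to 231 CPM in IL ganglia and 144 to 196 CPM in CL ganglia of female rats at 5W.

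Rgs5, a pericyte gene that damps G protein signals, showed the largest side difference of the female rats at 5W after Icam1 among called members. Its lowest, median and highest levels were 18.1, 22.2 and 27.2 CPM in IL ganglia, against 10.1, 13.3 and 18.3 CPM in CL ganglia, overlapping by 1 library (log2 fold change 0.70 ± 0.13, SE, adjusted p = 5.67e-05). In male rats at 5W the libraries held 26.4, 27.4, 12.4, 17.0 and 16.2 CPM in IL ganglia and 16.5, 21.7, 17.4, 19.6 and 16.6 CPM in CL ganglia, and Rgs5 was not called there (adjusted p = 0.694). Without the block it was not called at any other time.

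Markers of connective tissue moved with these genes. In female rats at 5W 5 of 8 fibroblast markers were higher, at a summed 1646 to 2547 CPM in IL ganglia and 946 to 1819 CPM in CL ganglia, and the part of fibroblasts in the vascular calls was not tested. In CL ganglia of female rats at 1W the same sum was 1668 to 3613 CPM.

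**Figure D4:**
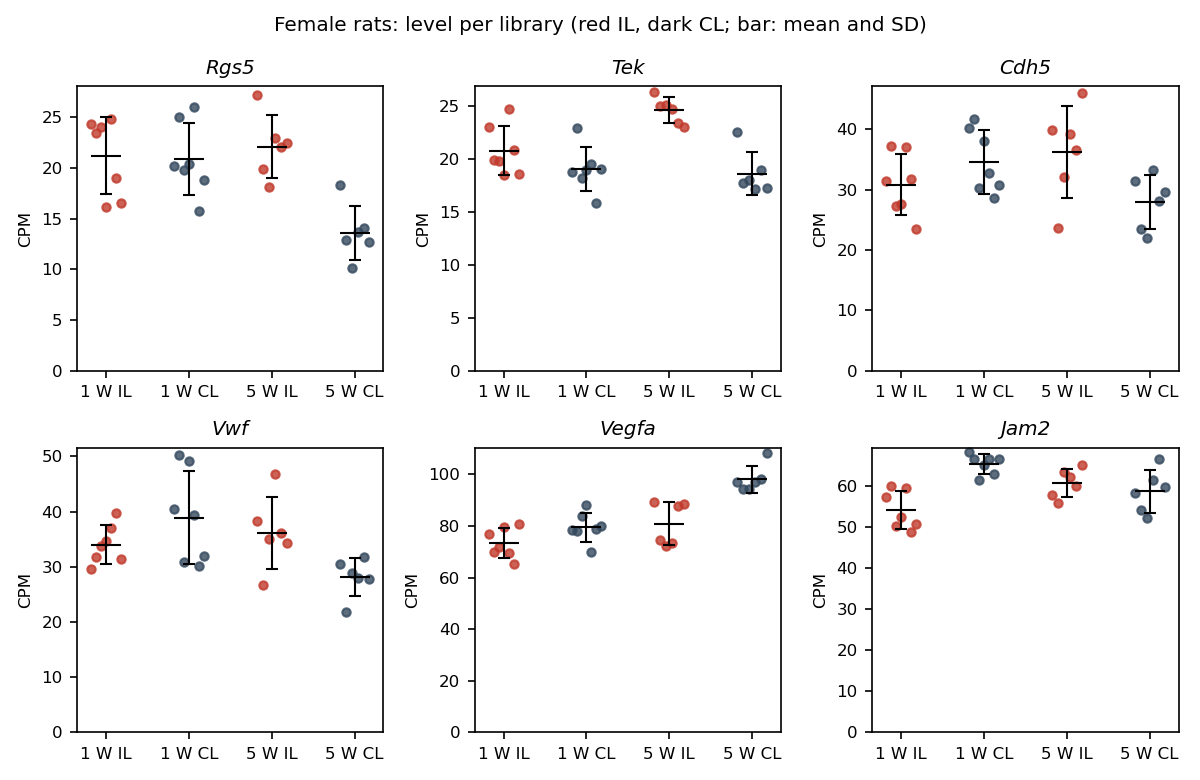
Level of 6 genes in each library of female rats, in CPM (IL in red, CL in dark, at 1W and 5W); bars give the mean and SD. At 5W IL points of Tek lie above and those of Vegfa below all CL points, and the CL level of Rgs5 is lower at 5W than at 1W while its IL level is similar.

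Vcam1, the ligand of the integrin VLA-4, rose in female rats at 5W to 11.4 ± 2.46 CPM in IL ganglia, against 8.07 ± 2.08 CPM in CL ganglia (SD, n = 6 each; log2 fold change 0.49 ± 0.16, SE, adjusted p = 0.0150). This call was lost without IL library 1 (adjusted p = 0.0684) or CL library 3 (adjusted p = 0.0553). Selp, P-selectin, lay at 2.45 ± 0.618 CPM in IL ganglia and 1.59 ± 0.518 CPM in CL ganglia there and was not called (log2 fold change 0.63, adjusted p = 0.103). With the rat or replicate number as a block Selp was called in female rats at 5W (0.64, adjusted p = 0.00509) and in male rats at 1W (0.56, adjusted p = 0.00118). Sele, E-selectin, reached at most 1.21 CPM in a library, and a side difference was not detectable at this depth.

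Of the transport genes, Slc2a1 rose in male rats at 1W (log2 fold change 0.26 ± 0.06, SE, adjusted p = 0.000529) and in female rats at 1W (0.23 ± 0.06, adjusted p = 0.00110) and 5W (0.22 ± 0.06, adjusted p = 0.00405). In female rats at 1W its lowest, median and highest levels were 105, 112 and 128 CPM in IL ganglia, against 86.0, 97.9 and 106 CPM in CL ganglia. The sides overlapped slightly. Cav1 and Plvap, which encode parts of caveolae and of the diaphragms of leaky capillaries, fell in female rats at 1W. Cav1 had a lowest, median and highest level of 69.0, 96.9 and 107 CPM in IL ganglia there, against 97.2, 134 and 165 CPM in CL ganglia (-0.52 ± 0.14, adjusted p = 0.00245). Plvap had 10.4, 12.1 and 17.0 CPM in IL ganglia, against 10.7, 15.4 and 27.6 CPM in CL ganglia (-0.42 ± 0.16, adjusted p = 0.0303), so its sides overlapped widely. Against the CL ganglia of female rats at 5W neither was called and the sign turned, to 0.045 for Cav1 (adjusted p = 0.829) and 0.025 for Plvap (adjusted p = 0.919). Between the sides of female rats at 1W, 7 of 10 myelinating Schwann cell markers were lower and 0 higher (median log2 fold change -0.52). Their summed level was 14122 to 17216 CPM in IL ganglia and 16697 to 32152 CPM in CL ganglia. The part of these cells in the falls of Cav1 and Plvap was not tested.

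The share of counts from ribosomal RNA genes did not overlap between these same sides, at 0.69 to 1.42% in IL and 1.69 to 2.76% in CL ganglia of female rats at 1W. With that share as a covariate Cav1, Plvap, Kdr, Slc2a1 and Abcb1a were no longer called, and 5 members remained called. Of the 18125 genes tested, 4062 were called with it in place of 8276. Since the share separates the sides, this fit cannot tell an effect of the share from one of the side. The Plvap call was also lost without IL library 2, 3, 4, 6 or 7 or CL library 1, 2 or 4 (adjusted p 0.0502 to 0.145). Abcb1a, the drug efflux pump P-glycoprotein, rose in female rats at 1W (0.30 ± 0.12, adjusted p = 0.0465), a call lost without IL library 1, 3, 5, 6 or 7 or CL library 1, 2, 3 or 4 (adjusted p 0.0521 to 0.109). Its close copy Abcb1b could share reads with it. Mfsd2a, a lipid transporter that holds back transcytosis in brain endothelium, fell in male rats at 1W (-0.16 ± 0.07, adjusted p = 0.0486). That call was lost without IL library 1, 2, 4, 5 or 7 or CL library 1 to 5 (adjusted p 0.0591 to 0.142). Lrp5, a Wnt co-receptor needed for retinal vessels, rose in female rats at 5W (0.31 ± 0.11, adjusted p = 0.0175), but not without IL library 1 (adjusted p = 0.0745). The efflux pump gene Abcg2 lay between -0.14 and -0.02 and was not called without the block. With the block Abcg2 was lower in male rats at 1W (-0.14, adjusted p = 0.00441).

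Whether the side difference changed between weeks was tested as the log2 fold change at 5W minus that at 1W. In female rats 6 of the 38 genes had a higher side difference at 5W and 0 a lower one, where 13.5% of all genes tested were called, 7.66% higher and 5.88% lower, a share near that of the members. These were Plvap (change 0.69 ± 0.24, SE, adjusted p = 0.0481), Rgs5 (0.67 ± 0.18, adjusted p = 0.00841), Vwf (0.56 ± 0.19, adjusted p = 0.0457), Cdh5 (0.54 ± 0.18, adjusted p = 0.0449), Kdr (0.53 ± 0.17, adjusted p = 0.0349) and Jam2 (0.32 ± 0.07, adjusted p = 0.00132). The median change was 0.30 over the 38 genes and -0.01 over all genes. With the rat as a block 16 members were called. Of these 14 were higher, 5 of the 6 above and Flt1, Tek, Emcn, Eng, Pecam1, Vcam1, Cldn1, Cav1 and Lrp5, and 2 were lower, Sox17 and Abcb1a. Vwf was lost (adjusted p = 0.0668). The share of all genes called with the block is not given for this change, so the 16 calls have no background beside them.

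In male rats 0 of the 38 genes differed between the weeks by edgeR, where 0.211% of all genes were called, 0.079% higher and 0.132% lower. Of the members 1 had an unadjusted p under 0.05, and DESeq2 and limma-voom called 0. That gene was Ocln, with a change of -0.86 ± 0.25 (SE, adjusted p = 0.185), called with the replicate number as a block (-0.88, adjusted p = 0.0427). With that block 497 of the 18980 genes tested were called.

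The CL levels themselves moved between the weeks in female rats. At 5W against 1W Rgs5 was lower by 0.61 on the log2 scale, with 13.6 ± 2.67 CPM at 5W and 20.9 ± 3.55 CPM at 1W (SD, n = 6 and 7; change -0.61 ± 0.13, SE, adjusted p = 0.00118). Cav1 (-0.57 ± 0.15), Vwf (-0.47 ± 0.14), Jam3 (-0.28 ± 0.07) and Jam2 (-0.16 ± 0.05) were lower too, and Vegfa was higher (0.30 ± 0.06, adjusted p = 0.000281), so that 1 of 38 genes was higher and 5 lower, against 10.7% of all genes called, 3.13% higher and 7.55% lower. Markers of other cells were lower between the same CL ganglia: 6 of 8 fibroblast markers (median log2 change -1.10) and 9 of 10 myelinating Schwann cell markers (median -0.72). The fibroblast sum was 946 to 1819 CPM at 5W and 1668 to 3613 CPM at 1W, and the part of these cells in the members' changes was not tested. The IL means of Rgs5 were 22.1 CPM at 5W and 21.2 CPM at 1W. Those of Vegfa were 80.9 CPM at 5W and 73.4 CPM at 1W.

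When the IL ganglia of female rats at 5W were set against the CL ganglia of 1W instead, 6 members were called in place of 14, and 4 of them were among the 14: Icam1, Cldn12, Tek and Tjp1. Rgs5 then had a log2 fold change of 0.08 (adjusted p = 0.638), and Cdh5, Eng, Pecam1, Vcam1, Angpt2, Lrp5 and Slc2a1 were not called either. Vwf was at -0.10 and Vegfa at 0.02. With the IL ganglia of 1W set against the CL ganglia of 5W, Kdr, Jam2, Sox17 and Abcb1a were no longer called in female rats beside Cav1 and Plvap. In male rats F11r, Jam3, Kdr and Slc2a1 were no longer called, and Kdr turned to 0.12 (adjusted p = 0.263). In CL ganglia of male rats at 5W against 1W, Abcb1a (0.36 ± 0.09), Cldn5 (0.28 ± 0.09) and Slc2a1 (0.23 ± 0.06) were higher and Kdr (-0.33 ± 0.09) and Jam3 (-0.14 ± 0.04) lower, so that 3 of 38 were higher and 2 lower, against 13.5% of all genes called, 7.34% higher and 6.2% lower.

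**Figure D5:**
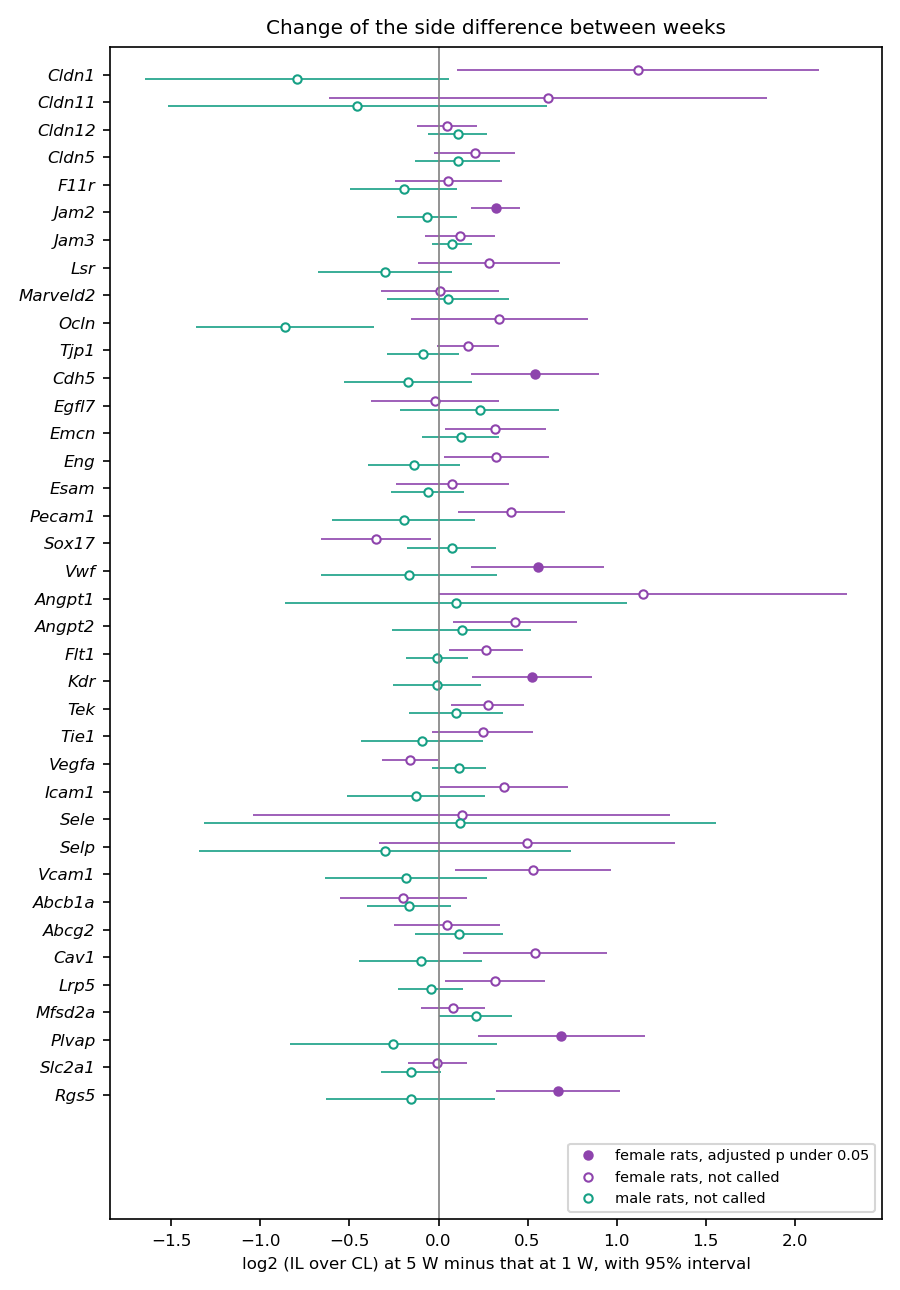
Change of the side difference (log2 of IL over CL at 5W minus that at 1W) for the 38 genes in female and male rats, with 95% intervals; filled points have an adjusted p under 0.05 without the block. Most points of female rats lie right of 0 and 6 of them are filled, and no point of male rats is filled.

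Differences between the sexes were tested in a joint fit of all 62 libraries, in which sex cannot be told apart from the count table at 1W and 5W. Female minus male, 0 of the 38 genes differed in their side difference at 1W, where 1.11% of all genes were called by edgeR, 0.416% higher and 0.698% lower. At 5W it was 0 of 38, against 2.11% of all genes, 1.55% higher and 0.562% lower. At an unadjusted p under 0.05 there were 9 members at 1W and 3 at 5W, and DESeq2 called 1 at 1W, Ocln, and 0 at 5W, while limma-voom called 0 at each. The smallest p at 1W was that of Ocln, at -0.82 (95% interval -1.29 to -0.36, adjusted p = 0.0713). With the rat or replicate number as a block, 4 members were called at 1W, all lower in female rats: Ocln (-0.83), Cldn1 (-1.05), Cdh5 (-0.41) and Cav1 (-0.40). At 5W the block gave 3, all higher in female rats: Rgs5 (0.60), Kdr (0.35) and Jam2 (0.26). Of the 19209 genes tested, the block gave 517 calls at 1W and 697 at 5W. For Icam1 and Cldn12 the female minus male difference at 5W was 0.07 (95% interval -0.33 to 0.47) and 0.01 (-0.17 to 0.19).

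In male rats the side difference at 1W minus that at 24 h, across the 2 tables, was called for 3 members, against 23% of all genes, 11% higher and 12% lower. Ocln was higher at 1W (change 0.89 ± 0.25, SE, adjusted p = 0.00524), and Vegfa (-0.38 ± 0.08, adjusted p = 0.000218) and Mfsd2a (-0.28 ± 0.10, adjusted p = 0.0281) were lower. With the block 11 members were called, adding Tek, Cdh5, Pecam1, Vwf, Rgs5, Cldn1, F11r and Tjp1, all higher at 1W. For this change, too, the share of all genes called with the block is not given.

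Further genes of the same kinds, none of them members, were counted from 6 lists. They are read against the share of all genes called, 14.1%, 47% and 34.7% in male rats at 24 h, 1W and 5W, and 45.7% and 42% in female rats at 1W and 5W. Of 25 tested junction genes 4 rose and 1 fell in male rats at 24 h, 7 and 8 at 1W, and 6 and 6 at 5W, while 7 rose and 8 fell in female rats at 1W and 9 and 4 at 5W. Cldn4, a claudin of epithelia, lay at 9.49 to 24.4 CPM in IL ganglia and at most 0.188 CPM in CL ganglia of male rats at 1W, and at 7.498 to 21.0 CPM in IL ganglia and at most 0.266 CPM in CL ganglia of female rats at 5W. Ildr2, a tricellular junction protein, lay at 15.5 to 26.3 CPM in IL ganglia and 1.43 to 3.31 CPM in CL ganglia of female rats at 5W (log2 fold change 2.92 ± 0.22, SE, adjusted p = 5.25e-13). Nectin3, an adherens junction protein, rose in 4 of the 5 comparisons, by 0.71 in female rats at 5W.

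Of 12 mural cell markers 5 rose and 0 fell in female rats at 5W, with a median log2 fold change of 0.58, while 2 rose in male rats at 1W, 1 at 5W and 0 at 24 h, and 1 fell in female rats at 1W. Between the CL ganglia of female rats at 5W and 1W 0 of the 12 were higher and 5 lower, with a median log2 change of -0.50. Abcc9, a potassium channel subunit of pericytes, rose in female rats at 5W (0.93 ± 0.12, SE, adjusted p = 5.69e-08) and in male rats at 5W (0.74 ± 0.12, adjusted p = 4.46e-05). Notch3, a receptor of vascular smooth muscle, rose in female rats at 5W (0.55 ± 0.14), and Des, an intermediate filament of muscle cells, in male rats at 1W (0.61 ± 0.14). The summed level of the 12 markers was 239 to 402 CPM in IL ganglia and 191 to 295 CPM in CL ganglia of female rats at 5W, so the sides overlapped.

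Of 19 further endothelial markers 8 rose and 1 fell in female rats at 5W, 4 and 1 in male rats at 1W, 2 and 2 at 5W, 1 and 0 at 24 h, and 1 and 2 in female rats at 1W. In female rats at 5W the share called was near that of all genes, and at the other times it lay below it. Mcam, an adhesion protein of endothelium and other cells, rose in all 5 comparisons. Mcam averaged 385 CPM in IL ganglia and 297 CPM in CL ganglia of female rats at 5W. Cd34 rose in female rats at 5W (log2 fold change 0.44) and male rats at 1W (0.32), and Sox7 in male rats at 1W (0.63) and 5W (1.02) and female rats at 5W (0.72). Of 20 angiogenic genes 3 rose and 2 fell in male rats at 24 h, 3 and 5 at 1W, and 5 and 3 at 5W, while 3 rose and 8 fell in female rats at 1W and 6 and 3 at 5W. Among them Hif1a, the oxygen-sensitive transcription factor, rose in all 5 comparisons (0.31 to 0.47), as did Notch1 (0.16 to 0.37), while the Notch ligand Jag2 fell in 4 (-0.37 to -0.23).

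Of 16 or 17 tested genes of barrier Wnt signalling 1 rose and 1 fell in male rats at 24 h, 3 and 4 at 1W, and 0 and 1 at 5W, while 2 rose and 4 fell in female rats at 1W and 5 and 2 at 5W. Tspan12 rose in male rats at 24 h (0.17) and 1W (0.19) and in female rats at 1W (0.27), Reck, part of the Wnt7 receptor complex, in female rats at 5W (0.39) and male rats at 1W (0.21), and Ctnnb1, which encodes beta-catenin, fell in 3 comparisons by at most 0.13. Of 11 barrier transport genes 3 rose and 0 fell in male rats at 24 h, 5 and 1 at 1W, and 0 and 1 at 5W, while 3 rose and 3 fell in female rats at 1W and 3 and 1 at 5W. The amino acid transporter genes Slc3a2 and Slc7a5 rose in male rats at 24 h (0.39 and 0.40) and 1W (0.29 and 0.38) and in female rats at 1W (0.30 and 0.38). Tfrc, the transferrin receptor gene, fell in male rats at 1W (-0.19) and 5W (-0.46) and in female rats at 1W (-0.22) and 5W (-0.43).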

How the data were processed

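Per the labels' protocols, poly-A RNA with an RNA integrity number of at least 7.5 was sequenced from stranded libraries. Per the submitters' processing notes, bcl2fastq 2.20.0.422, cutadapt 2.5, STAR 2.7.2b, featureCounts 1.6.4 and build mRatBN7.2 were used. The authors deposited estimated counts per gene in 2 tables, some not whole, so overlapping genes may share reads. One table holds male rats at 1W and 5W (24 libraries), the other female rats and male rats at 24 h (38 libraries).

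Counts were rounded and, in each table, filtered (filterByExpr, minimum count 10), scaled by TMM and tested with edgeR 4.0.16 (glmQLFit robust, group means, R 4.3.3), with Benjamini-Hochberg adjustment over all genes. Sexes, and 24 h with 1W, were compared in a joint fit. CPM use TMM-scaled library sizes, RPKM the deposited exon lengths. The members, roles and lists were chosen with earlier results of these data known, and the genes named from further lists are the up to 3 with the smallest p.

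The sides pair: female and 24 h labels give the same animal code to both sides, and in male rats at 1W and 5W every same-numbered pair deviated together (correlation 0.222 to 0.470 and 0.197 to 0.353, threshold 0.1). In the coded groups it was 0.0100 to 0.373 (24 h), 0.111 to 0.322 (female, 1W) and 0.243 to 0.418 (female, 5W). Pairs 5 and 6 at 24 h lay under the threshold (0.0100 and 0.0130). The same number was the best match for 4 of 6 pairs at 24 h and 6 of 7 in female rats at 1W. It was the best match for every pair of the other groups. The block fit at 24 h was not repeated without pairs 5 and 6. Alternatives were RLE scaling, no filter, minimum count 50, DESeq2 1.42.0, limma-voom (limma 3.58.1), only the 2 groups compared, the block, leaving out each library, a ribosomal RNA covariate, the CL libraries of the other week and a threshold of 0.01. The test was checked on simulated data.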

Additional observations from a re-analysis of the deposited data

Results flagged for a closer look

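Of 380 sets of log2 CPM values (38 genes in 10 groups, 0.5 CPM added before the log), 23 were flagged. In these the gap of the highest or lowest library to its nearest neighbour, relative to the group's range, passed Dixon's 95% critical value. Chance gives about 1 in 20, or 19. In male rats at 24 h, these were Cav1 at 189 CPM in IL library 1, Cldn11 at 4.47 CPM in IL library 3, Egfl7 at 16.3 CPM in IL library 4, Flt1 at 39.5 CPM in CL library 2 and Marveld2 at 2.60 CPM in CL library 5. In IL ganglia of male rats at 1W, they were Marveld2 at 1.37 CPM in library 5, Ocln at 2.24 CPM in library 6, Pecam1 at 31.6 CPM in library 1, Slc2a1 at 90.1 CPM in library 2 and Vegfa at 67.9 CPM in library 3. CL library 6 of male rats at 1W was the lowest for Cav1 at 90.9 CPM, Cldn1 at 10.4 CPM and Tjp1 at 82.3 CPM.

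In male rats at 5W, Kdr stood at 28.3 CPM and Marveld2 at 2.01 CPM in IL library 1, and Cldn5 at 53.0 CPM and Lsr at 5.85 CPM in CL library 2. In CL ganglia of female rats at 5W, library 1 stood apart for Abcg2 at 21.1 CPM, Sox17 at 15.4 CPM and Tek at 22.5 CPM. There too Ocln was at 1.32 CPM in library 3, Vegfa at 108 CPM in library 6 and Vwf at 21.8 CPM in library 2.

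The side difference itself differed between groups, by edgeR's test of the interaction, for 9 results. In female rats at 5W minus 1W the log2 differences were 0.69 for Plvap, 0.67 for Rgs5, 0.56 for Vwf, 0.54 for Cdh5, 0.53 for Kdr and 0.32 for Jam2. In male rats at 1W minus 24 h they were 0.89 for Ocln, -0.28 for Mfsd2a and -0.38 for Vegfa, across the 2 deposited count tables.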

How the results depend on the processing

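Of the 42 member calls, 18 held at 0.05 under every alternative fit, of which that of Lsr does not pass 0.01. With the replicate block, calls in male rats numbered 4 members at 24 h, 23 at 1W and 9 at 5W. The changes of the side difference gave 16 members (female, 5W minus 1W), 1 (male, 5W minus 1W; 497 genes), 4 and 3 (female minus male at 1W and 5W; 517 and 697 genes) and 11 (male, 1W minus 24 h), and the block changed no calls beyond those given above. DESeq2 called 140 genes for male rats at 5W minus 1W and 1 member for female minus male at 1W. For female rats at 5W minus 1W, 2 members were called without the filter, 3 by limma-voom and 2 at a threshold of 0.01. That threshold left 5 members in female rats at 1W, 9 at 5W and 1 between the CL ganglia of male rats. At 24 h, 1604 genes were called from only the 2 groups and 1457 without numbers 5 and 6. The ribosomal RNA covariate left 4062 genes and 5 members in female rats at 1W.

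Against CL libraries of the other week, 13 members were called in male rats at 5W and 6 in female rats at 5W. Signs turned for Kdr (0.12, male, 1W), Abcb1a (0.34, male, 5W), Jam3 (0.17), Cav1 (0.045) and Plvap (0.025) in female rats at 1W, and Vegfa (0.024), Vwf (-0.10), Jam3 (-0.26) and Cav1 (-0.55) in female rats at 5W. The cause was not tested.

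Leaving out 1 library gave 2 to 4 members and 2044 to 3056 genes at 24 h, 10 to 13 and 8240 to 9040 at 1W and 3 to 6 and 5683 to 6701 at 5W in male rats, and 7 to 11 and 7648 to 8266 at 1W and 10 to 16 and 6875 to 7818 at 5W in female rats. At 24 h, Cav1 was called without IL library 1 (adjusted p = 0.00976) or CL library 4 (0.0440), and Slc2a1 without IL library 1 (0.0471). At 5W in male rats, calls were gained by Kdr (0.00956) and Slc2a1 (0.0499) without IL library 1, Tek without IL library 3 (0.0270) or CL library 4 (0.0481) and Tjp1 without IL library 5 (0.0448).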
